A study of Saccharomyces cerevisiae with 12 samples.

Results

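The 26S proteasome genes of budding yeast are described here as the 34 genes, of 5594 measured, whose symbols are RPN, PRE or PUP followed by a number, RPT1 to RPT6, or SCL1. The genes were picked by symbol, but the choice was made with earlier results of these data known. Of the 34, 32 encode subunits of the protease. The remaining genes are RPN4, which encodes a transcription factor of proteasome genes, and RPN14, which encodes an assembly chaperone, and both are given apart. Each gene was read by 1 probe, all 34 matched a RefSeq locus of the same symbol, and they lie on 13 chromosomes.

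Transcripts of a strain defective for ZTA1 (∆zta1) were set against those of its wild type, FY834α, on 2-colour Agilent arrays. Cells of both strains were in exponential phase in rich YPD medium, and 3 pairs of cultures had 10 mM hydrogen peroxide (H2O2) for 30 min while 3 pairs were untreated. Every pair was measured on 2 arrays, the second with swapped dyes, giving 12 arrays. Replicate numbers were not taken to link cultures across the treatments. Both strains of a pair had the same treatment, so the response to peroxide itself was not measured. The labels call the replicates biological, and do not say how ∆zta1 was made or how many clones were used. The values are log2 ratios of ∆zta1 to wild type without intensities, so the level of a transcript is unknown, and less of it per cell cannot be told apart from fewer cells that make it.

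The proteasome degrades proteins that carry chains of ubiquitin. Its barrel-shaped core particle consists of outer rings of alpha subunits and inner rings of beta subunits, and the proteolytic sites face the inside. The regulatory particle caps the barrel. Its base holds a ring of ATPases that unfold the substrate, and its lid removes ubiquitin. In yeast the transcription factor Rpn4 binds an element in the promoters of most subunit genes and is itself a short-lived substrate of the proteasome, which ties subunit transcription to proteasome activity. Oxidative stress is one of the conditions known to engage Rpn4.

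ZTA1 itself was low in each ∆zta1 culture. Its log2 ratio was -4.96, -4.56 and -4.58 in the H2O2 pairs and -5.84, -4.32 and -5.73 in the untreated pairs, and the 12 arrays lay between -6.34 and -3.21. Mating-type markers, 4 of alpha cells and 6 of a cells, were measured for the same check, and none passed the test in any comparison. The median of the alpha-cell markers in a pair lay between -0.18 and 0.29, with its highest value in the second untreated pair. That of the a-cell markers lay between -0.17 and 0.030, with its lowest value in the second H2O2 pair. There 4 of 6 were beyond 0.1 in size, against 827 of 5594 genes, and MFA1 was lowest at -0.31. On the 2 arrays of that pair MFA1 had -0.13 with ∆zta1 in Cy5 and -0.49 with it in Cy3. The part of these marker shifts in the proteasome ratios of the same pairs was not tested. Over all 5594 genes, arrays of the same dye orientation correlated at 0.47 to 0.88, while the 2 arrays of a pair correlated at -0.072 to 0.42.

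No proteasome gene passed the test for a difference between the strains after adjustment over all genes. A gene passed limma's test at an adjusted p under 0.05, by Benjamini-Hochberg across the 5594 genes. By that rule 0 of the 34 passed under H2O2, where 0.215% of all genes did, and 0 passed in untreated cells, where 0.197% did. None passed in the mean of both treatments (0.286% of all genes) or in the difference between treatments, H2O2 minus untreated (0% of all genes). At an unadjusted p under 0.05, 2 subunits were lower under H2O2, against 5.24% of all genes, and 0 were higher, against 3.06%. In untreated cells no subunit reached an unadjusted p under 0.05 in either direction, against 3.65% of all genes, and none did for the difference, against 1.27%. In the mean of both treatments 1 subunit, RPN9, did, against 9.46%.

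The intervals show how far each subunit ratio could lie from equality, at 95% for each gene by itself and not for all genes together. Under H2O2 the 95% limma intervals of all 32 subunits lay between log2 ratios of -0.20 and 0.15, which are folds of 0.869 and 1.11. In untreated cells they lay between -0.16 and 0.14, or folds of 0.897 and 1.1. For the difference between treatments they spanned -0.21 to 0.22. Every subunit's interval stayed within 0.25 of 0 in both treatments, as did those of 96.5% of all genes under H2O2 and 95.8% in untreated cells. The subunits did not have an unusual spread, with a median residual SD of 0.057 against 0.061 for all genes.

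**Figure D1:**
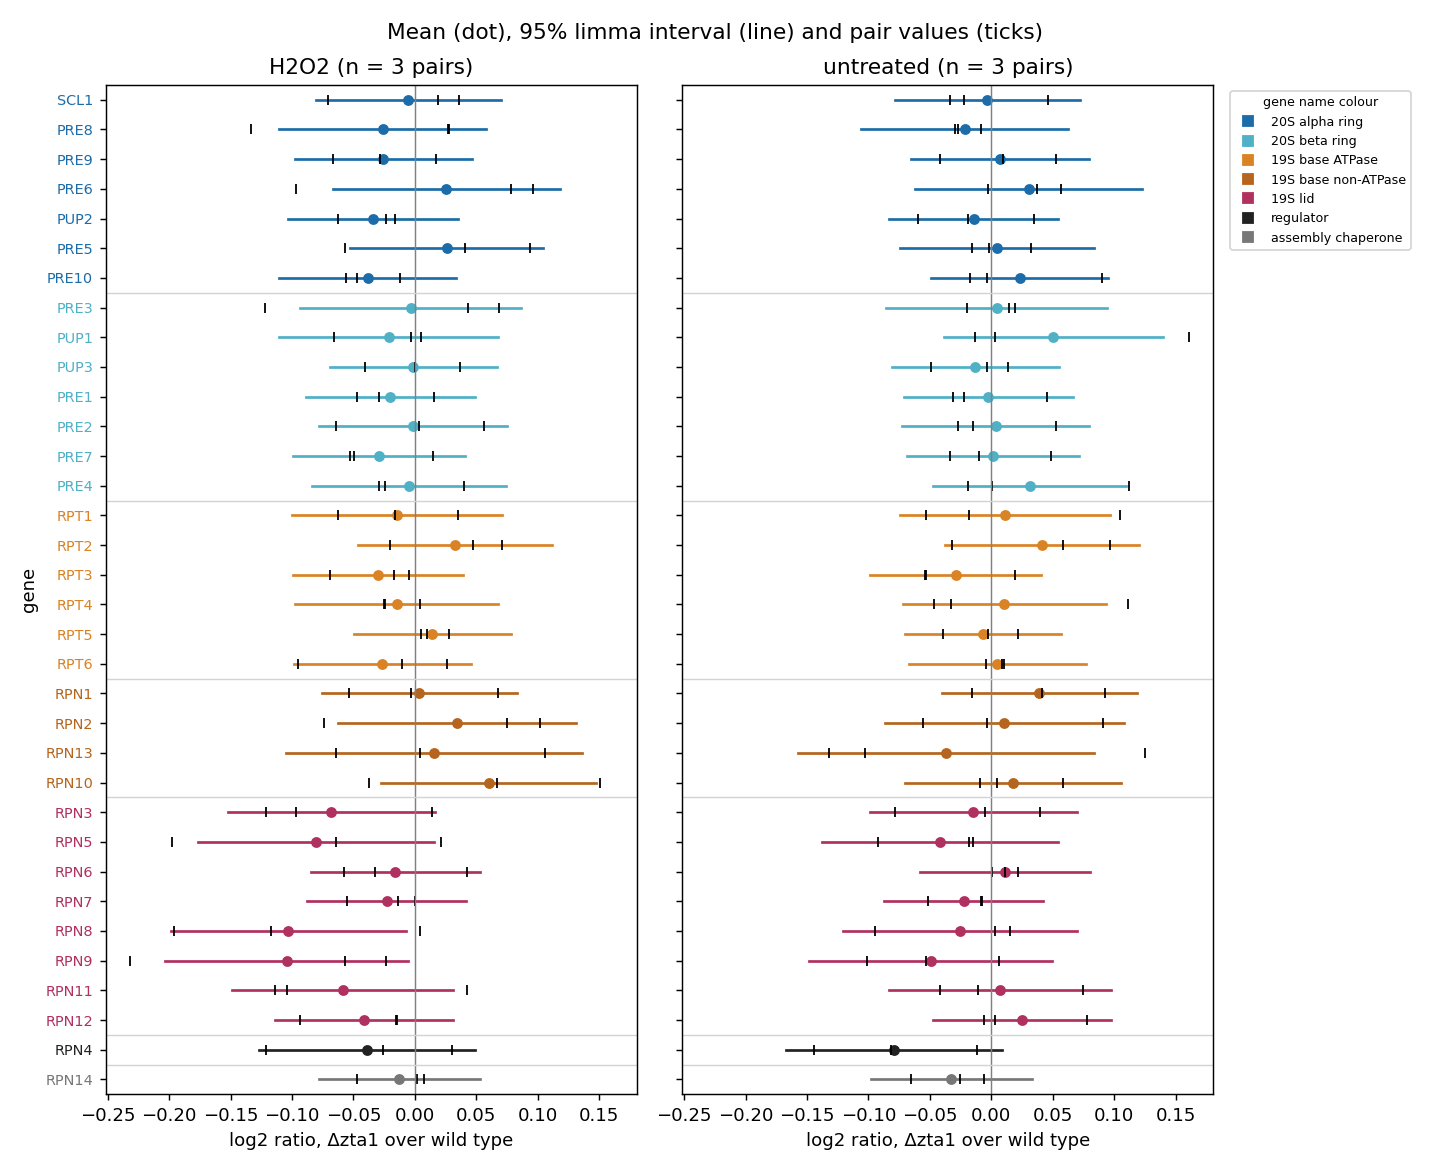
Each row is a proteasome gene and each panel a treatment, H2O2 left and untreated right; the x axis is the log2 ratio of ∆zta1 to wild type, the dot is the mean of 3 pairs, the line its 95% limma interval and the ticks the pairs. All intervals lie within 0.25 of 0, and those of RPN8 and RPN9 under H2O2 are the only ones that leave out 0.

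As a group the subunits stayed close to 0. The median of their mean ratios was -0.018 under H2O2, against -0.0023 over all genes, and 8 of 32 lay above 0, against 47.9% of all genes. In untreated cells it was 0.0046, against 0.00050 over all genes, and 19 of 32 lay above 0, against 50.6%. The subunit means ran from -0.10 for RPN9 to 0.060 for RPN10 under H2O2, and from -0.049 for RPN9 to 0.050 for PUP1 in untreated cells.

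The share of subunits above 0 varied between pairs. The median of every array lay near 0 over all genes, which keeps their share nearly constant, so it is no yardstick for this variation. The median over the 32 subunits was -0.020, 0.018 and -0.053 in the H2O2 pairs, with 12, 24 and 3 subunits above 0. It was -0.015, 0.037 and -0.012 in the untreated pairs, with 8, 22 and 12 above 0. Of all genes, 51.3%, 47.7% and 47.9% were above 0 in the H2O2 pairs and 49.7%, 50.5% and 48.5% in the untreated pairs. In either treatment the median was above 0 in a single pair, and the ranges of the treatments overlapped. In the third H2O2 pair the quartiles of the subunits were -0.072 and -0.017, against -0.052 and 0.046 for all genes, and all 14 core genes were below 0. Without that pair the median under H2O2 was -0.00030, and without the second pair it was -0.036. In untreated cells it was -0.014 without the second pair.

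**Figure D2:**
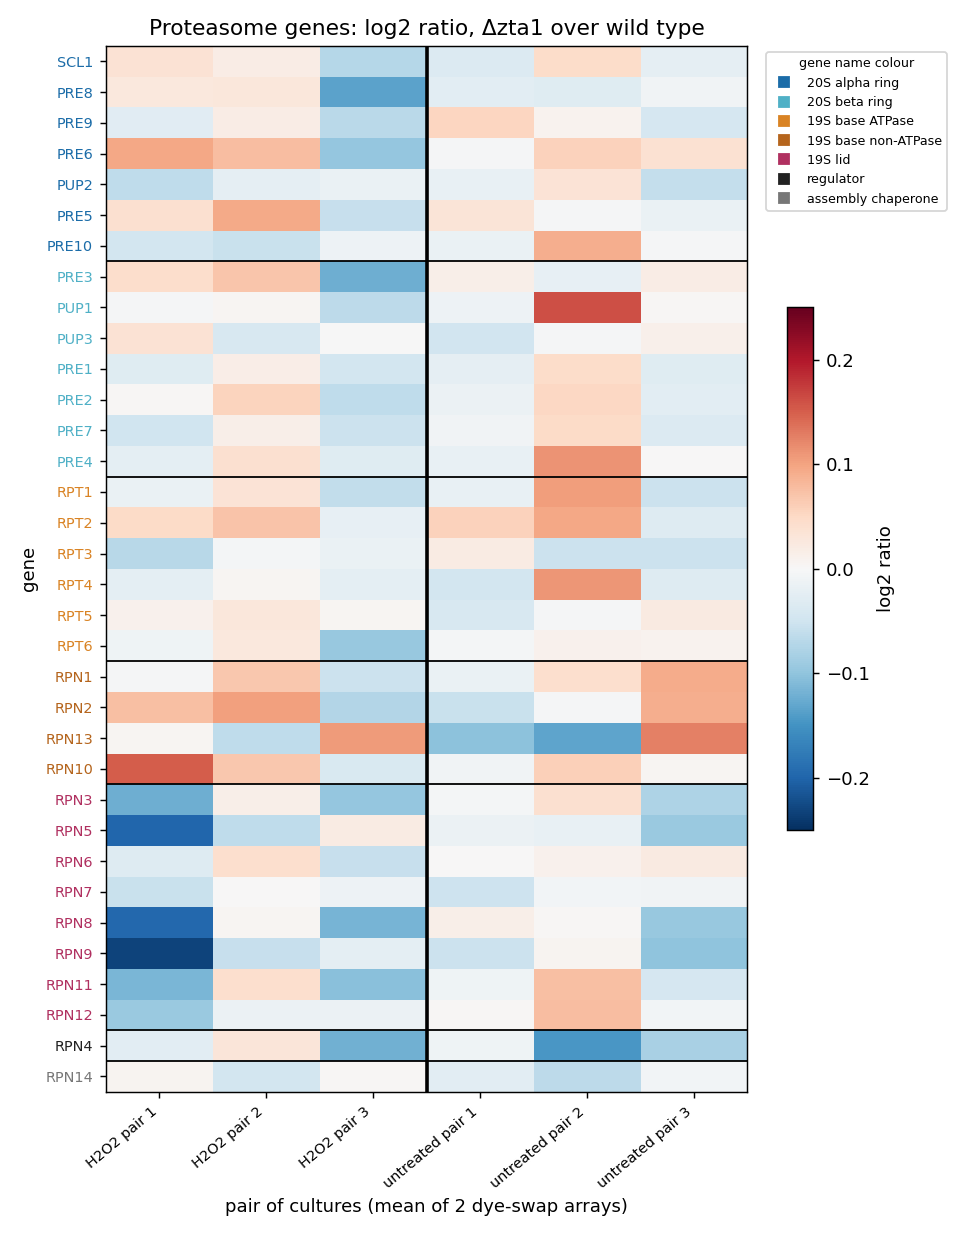
Each row is a proteasome gene, ordered by its place in the complex, and each column a pair of cultures, the 3 H2O2 pairs left of the 3 untreated pairs; colour is the log2 ratio of ∆zta1 to wild type. The third H2O2 pair is below 0 for 29 of 32 subunits, and all 8 lid genes are below 0 in the first H2O2 pair.

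The alpha ring, whose subunits form the gate of the core particle, had a median ratio of -0.026 under H2O2 and 0.0046 in untreated cells over its 7 genes. Its lowest pair value was that of PRE8, at 0.027, 0.028 and -0.13 in the H2O2 pairs and -0.027, -0.030 and -0.0082 in the untreated pairs. Only the third H2O2 pair stood apart for PRE8, and it was the reverse of its other H2O2 pairs. PRE6, of the same ring, was also low only in that pair, at 0.096, 0.078 and -0.097 under H2O2 and -0.0024, 0.057 and 0.038 in untreated cells. PRE10 was below 0 in all H2O2 pairs, at -0.047, -0.056 and -0.012, against -0.018, 0.090 and -0.0038 in untreated cells. These values overlapped between treatments. PUP2 likewise lay below 0 in each H2O2 pair, at -0.063, -0.023 and -0.016, against -0.019, 0.035 and -0.059 in untreated pairs. PRE5 had 0.041, 0.094 and -0.057 under H2O2 and 0.032, -0.0021 and -0.016 in untreated cells, with the third H2O2 pair again the lowest. SCL1 and PRE9 had means between -0.026 and 0.0070 in either treatment.

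The 7 beta-ring genes had medians of -0.0045 under H2O2 and 0.0036 in untreated cells. PRE3, PUP1 and PRE2 encode the proteolytic subunits, with caspase-like, trypsin-like and chymotrypsin-like activity in that order. PRE2 had ratios of 0.0033, 0.057 and -0.064 under H2O2 and -0.015, 0.053 and -0.027 in untreated cells. PRE3 had 0.043, 0.069 and -0.12 under H2O2, against 0.014, -0.020 and 0.019 in untreated cells. PUP1 had -0.0027, 0.0049 and -0.065 under H2O2 and -0.013, 0.16 and 0.0031 in untreated cells. Each of the proteolytic genes had its lowest value in the third H2O2 pair, and the mean of PUP1 in untreated cells, the highest of any subunit there, rested on the second pair. The limma adjusted p of PUP1 was 0.911 under H2O2 and 0.9995 in untreated cells. PRE4, a beta subunit without a proteolytic site, had -0.024, 0.040 and -0.029 under H2O2 and -0.019, 0.11 and 0.00090 in untreated cells, and it too was highest in the second untreated pair. PUP3, PRE1 and PRE7, which are also not proteolytic, had means of -0.029 to -0.0012 under H2O2 and -0.013 to 0.0017 in untreated cells.

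In the base of the regulatory particle, the 6 ATPase genes RPT1 to RPT6 had medians of -0.015 under H2O2 and 0.0078 in untreated cells. RPT2, whose product opens the gate of the core, had the highest mean of them. Its ratios were 0.047, 0.071 and -0.021 under H2O2 and 0.058, 0.097 and -0.032 in untreated cells, with the lowest value below 0 in either treatment. RPT5 was the only subunit gene above 0 in every H2O2 pair, at 0.010, 0.028 and 0.0049, against -0.039, -0.0030 and 0.022 in untreated cells. That is 1 of 32 subunits, against 14.2% of all genes. RPT1, RPT3, RPT4 and RPT6 had means of -0.030 to -0.015 under H2O2 and -0.029 to 0.011 in untreated cells.

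The other base genes are RPN1 and RPN2, whose products are large scaffolds, and RPN10 and RPN13, whose products are ubiquitin receptors. RPN10 had the highest mean of all subunits under H2O2, with ratios of 0.15, 0.067 and -0.038, against -0.0091, 0.059 and 0.0043 in untreated cells. Its mean of 0.060 ± 0.094 (SD, n = 3 pairs) was smaller than its spread and did not pass (limma adjusted p = 0.681). RPN2 had 0.075, 0.10 and -0.074 under H2O2, against -0.056, -0.0038 and 0.091 in untreated cells, with values of both signs in either treatment. RPN1 had -0.0033, 0.068 and -0.054 under H2O2 and -0.016, 0.041 and 0.092 in untreated cells, likewise with both signs in either treatment. RPN13 varied most between pairs, at 0.0042, -0.064 and 0.11 under H2O2 and -0.10, -0.13 and 0.13 in untreated cells. Its highest H2O2 value was in the third pair, where most subunits were low.

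The lid genes were the lowest group under H2O2. All 8 had a mean below 0 there, where 47.9% of all genes lay above 0. This was not particular to the lid, as all 7 beta-ring means were also below 0 under H2O2, at -0.029 to -0.0012. The lid median was -0.063, against -0.0049 for the 24 subunits outside the lid and -0.0023 over all genes. In untreated cells the lid median was -0.019 and 3 of 8 means lay above 0, against 50.6% of all genes. The median over the lid genes was -0.12, 0.0021 and -0.041 in the H2O2 pairs and -0.0079, 0.0084 and -0.060 in the untreated pairs. The first H2O2 pair was the lowest. The lid was below 0 in all 8 genes only there, where 51.3% of all genes were above 0. Without that pair the lid median under H2O2 was -0.026, without the second -0.099 and without the third -0.054. In untreated cells it was 0.0074 without the third pair and -0.035 without the second.

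**Figure D3:**
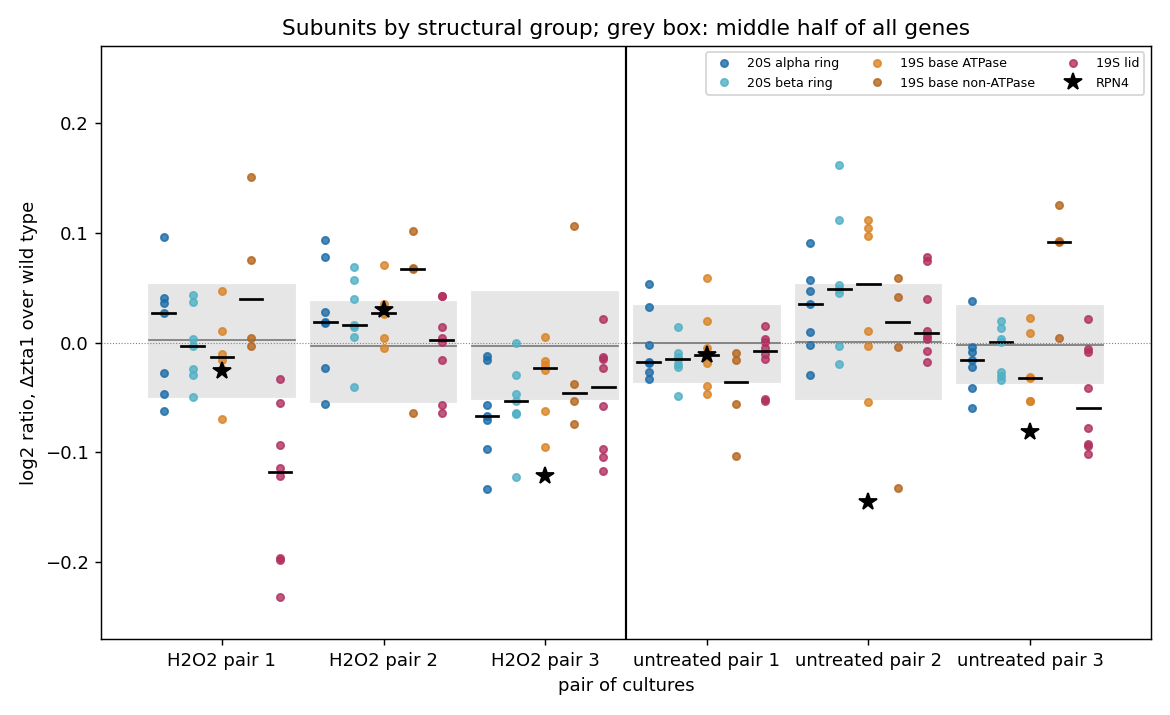
Each point is the log2 ratio of ∆zta1 to wild type (y axis) of 1 subunit gene in 1 pair of cultures (x axis, H2O2 pairs left of untreated pairs), coloured by its place in the complex; bars are group medians, stars RPN4, and grey boxes run between the quartiles of all genes with a line at their median. The lid median is at -0.12 in the first H2O2 pair, and the other group medians stay within 0.1 of 0.

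RPN8 and RPN9 were the only subunit genes at an unadjusted limma p under 0.05. RPN9, a scaffold subunit of the lid, had ratios of -0.23, -0.057 and -0.024 under H2O2 and -0.053, 0.0060 and -0.10 in untreated cells. It was below 0 in 5 of 6 pairs, and the treatments overlapped. Its mean was -0.10 under H2O2 (SE 0.044, limma adjusted p = 0.598) and -0.040 without the first H2O2 pair. RPN8, whose product pairs with the deubiquitinase Rpn11, had -0.20, 0.0040 and -0.12 under H2O2, against 0.015, 0.0029 and -0.095 in untreated cells. Its second H2O2 pair was near 0 and the others were low. The mean of RPN8 under H2O2 was -0.10 (SE 0.042, limma adjusted p = 0.595), and -0.057 without the first pair. The ratios of RPN8 and RPN9 differed between the dye orientations, as given below. RPN9 was above 0 on 0 of 6 arrays with ∆zta1 in Cy5 (mean -0.20) and on 5 of 6 with it in Cy3 (mean 0.045).

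RPN11, the gene of the deubiquitinase itself, had ratios of -0.11, 0.042 and -0.10 under H2O2 and -0.011, 0.074 and -0.042 in untreated cells. In either treatment a single pair was above 0 and the others were below. RPN5 had -0.20, -0.064 and 0.021 under H2O2, against -0.015, -0.018 and -0.092 in untreated cells. RPN3 had -0.12, 0.014 and -0.097 under H2O2 and -0.0051, 0.039 and -0.078 in untreated cells. RPN5 and RPN3, both scaffold subunits, had their lowest value in the first H2O2 pair. Both were also low in the third untreated pair, and RPN3 in the third H2O2 pair. RPN6 and RPN7, whose products are also lid scaffolds, had means of -0.023 to 0.011 in either treatment.

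RPN12, a lid subunit that joins the complex late in assembly, was the only subunit gene whose H2O2 pairs all lay below its untreated pairs. It had -0.094, -0.015 and -0.015 under H2O2 and 0.0031, 0.078 and -0.0062 in untreated cells. The closest pairs of the treatments differed by less than 0.01, and the difference between treatments was -0.066 (SE 0.045, limma adjusted p = 0.999). Such a separation was seen in 2.88% of all genes in that direction and 2.66% in the other, where no subunit had it. Below 0 in every H2O2 pair were 5 of 32 subunits (PRE10, PUP2, RPN9, RPN12 and RPT3), against 15.8% of all genes. In untreated cells PRE8, RPN5 and RPN7 were below 0 in every pair, 3 of 32 against 11%, and RPN6 was above 0 in every pair, 1 of 32 against 10.5%. No subunit kept 1 sign in all 6 pairs, against 3.09% of all genes above 0 and 3.74% below 0.

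Across the subunits, the difference between treatments, H2O2 minus untreated, had a median of -0.023, against -0.0017 over all genes. It was lowest for RPN8 (-0.077), PUP1 (-0.071), RPN12 and RPN11 (both -0.066), and highest for RPN13 (0.052), RPN10 (0.042), RPN2 (0.024) and PRE5 (0.021). Even for RPN8, with the largest of these, the 95% limma interval ran from -0.21 to 0.058, and all subunits had a limma adjusted p of at least 0.999.

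RPN4 did not pass the test. Its ratios were -0.026, 0.030 and -0.12 under H2O2 and -0.012, -0.14 and -0.082 in untreated cells. All untreated pairs and 2 of 3 H2O2 pairs were below 0, and the treatments overlapped. The mean was -0.039 ± 0.076 under H2O2 (limma adjusted p = 0.805) and -0.079 ± 0.067 in untreated cells (SD, n = 3 pairs each; limma adjusted p = 0.9995). In untreated cells the 95% interval was -0.17 to 0.0086, and the mean was -0.11 without the first pair and -0.047 without the second. Under H2O2 the mean was 0.0020 without the third pair. The difference between treatments was 0.040 (SE 0.055, limma adjusted p = 0.999).

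RPN4 and the subunits were not always low in the same pairs. In the second untreated pair RPN4 had its lowest ratio, -0.14, and the subunit median its highest, 0.037. In the third H2O2 pair RPN4 was at -0.12 and the subunit median at its lowest, -0.053. RPN14, a chaperone of the base, had 0.0072, -0.047 and 0.0020 under H2O2, against -0.026, -0.065 and -0.0062 in untreated cells, and no H2O2 pair was as low as the second untreated pair. Its means were -0.013 under H2O2 and -0.032 in untreated cells (limma adjusted p = 0.917 and 0.9995).

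In most proteasome genes the ratio depended on which strain carried which dye. The dye part of a gene is the ratio with ∆zta1 in Cy5 minus the ratio with ∆zta1 in Cy3, divided by 2, within a pair, and averaging the 2 arrays cancels it. It passed the limma test in 25 of the 34 genes, against 66.3% of all genes. Of the subunits, 12 passed with a positive dye part and 12 with a negative one. It was larger in size than the mean strain ratio in 27 of 32 subunits, or 84.4%, against 72.2% of all genes.

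RPN12 had the largest dye part, -0.21 (limma adjusted p = 3.2e-06). With ∆zta1 in Cy5 its ratios were -0.30, -0.21 and -0.18 in the H2O2 pairs and -0.28, -0.12 and -0.19 in the untreated pairs. With ∆zta1 in Cy3 they were 0.11, 0.18 and 0.15 in the H2O2 pairs and 0.29, 0.28 and 0.18 in the untreated pairs. The 2 orientations did not overlap, and their sign was opposite in every pair. RPN8 had a dye part of 0.18 (limma adjusted p = 3.8e-06), with a mean of 0.12 over the 6 arrays with ∆zta1 in Cy5 and -0.25 over the 6 with it in Cy3. Under H2O2 its ratios were -0.0023, 0.19 and 0.0041 with ∆zta1 in Cy5, and -0.39, -0.18 and -0.24 with it in Cy3. RPN11 (0.15), RPN2 (0.14), RPT4 (-0.13), RPN9 (-0.12) and SCL1 (0.12) followed. For RPN4 the dye part was -0.014 (limma adjusted p = 0.422), smaller than its strain ratio.

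**Figure D4:**
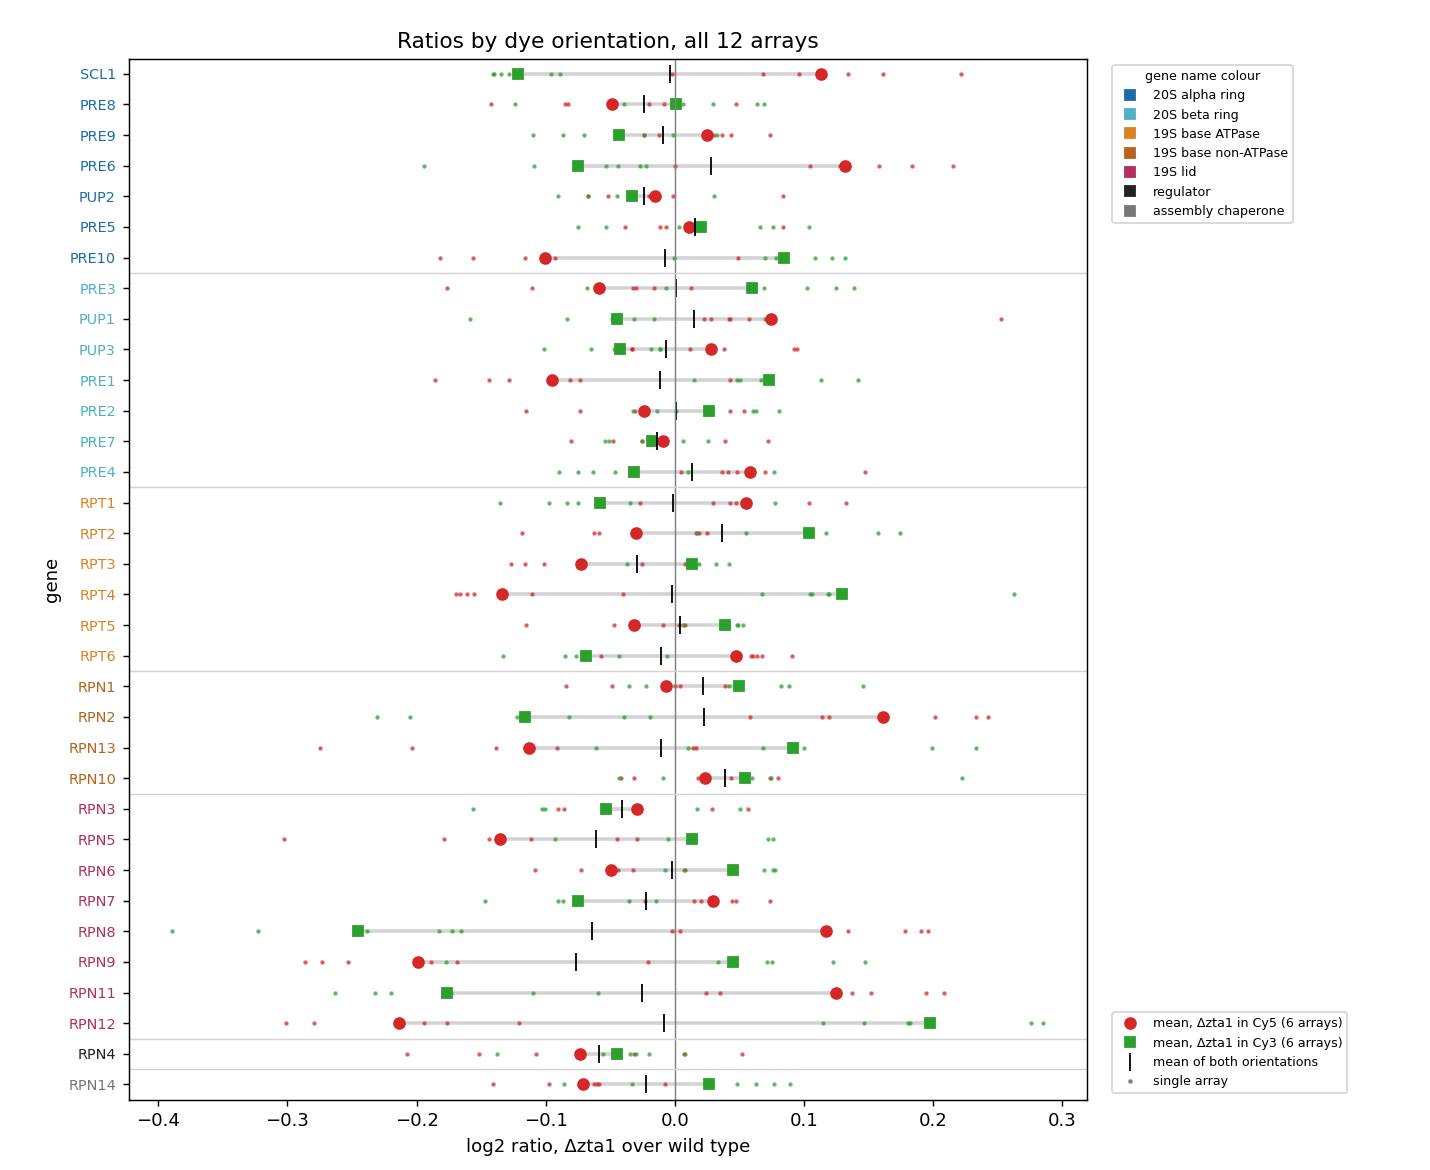
Each row is a proteasome gene and the x axis the log2 ratio of ∆zta1 to wild type on single arrays; red circles are means of the 6 arrays with ∆zta1 in Cy5, green squares of the 6 with it in Cy3, and the black tick is the mean of both. For RPN12 the means are -0.21 and 0.20, and the tick lies at -0.0082.

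A fit to 1 dye orientation alone called many of all genes, with proteasome genes among them. Under H2O2 it called 4 of 34 with ∆zta1 in Cy5, against 16.6% of all genes, and 3 with it in Cy3, against 7.51%. In untreated cells it called 4, against 16.2%, and 3, against 10%. In the mean of both treatments it called 12, against 36.9%, and 8, against 26.4%. RPN12 was called in all 6 of these fits, as lower with ∆zta1 in Cy5 and as higher with ∆zta1 in Cy3.

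None of the genes that work with the proteasome, in 3 lists, passed in any comparison. Their median absolute ratio under H2O2 was 0.043 for assembly and associated genes, 0.024 for the ubiquitin system and 0.041 for genes that act on RPN4, against 0.026 for the subunits. In untreated cells it was 0.022, 0.016 and 0.021 in the same order, against 0.014 for the subunits. Over all genes it was 0.032 under H2O2 and 0.024 in untreated cells. These sizes were not tested against each other. Of the assembly factors and associated proteins, 17 genes had medians of -0.015 under H2O2 and -0.0093 in untreated cells. SEM1, which encodes the small lid subunit that the symbol pattern leaves out, had -0.11, -0.077 and 0.045 under H2O2 and 0.033, 0.22 and 0.049 in untreated cells. Its difference between treatments was -0.15 (SE 0.063, limma adjusted p = 0.999), and the third H2O2 pair lay among the untreated pairs. ADD66, a chaperone of core assembly, had -0.086, -0.092 and 0.028 under H2O2, against -0.028, -0.26 and -0.058 in untreated cells. Its lowest value, in the second untreated pair, set its untreated mean of -0.11 (limma adjusted p = 0.9995). HUL5, a proteasome-bound ubiquitin ligase, had the highest mean over both treatments, 0.037, and ADD66 the lowest, -0.082. HSM3, a chaperone of the base, was below 0 in all 6 pairs, at -0.066 to -0.013. That is 1 of 17 genes, against 3.74% of all genes below 0 in all pairs.

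The 25 genes of the ubiquitin system, which attaches ubiquitin and delivers substrates, had medians of 0.0051 under H2O2 and 0.016 in untreated cells. In untreated cells 22 of 25 means lay above 0, against 50.6% of all genes, and 14 of 25 did without the second pair. UBA1, the ubiquitin-activating enzyme, had the lowest mean over both treatments, -0.030, and DDI1, a shuttle that carries ubiquitinated proteins, the highest, 0.064. SAN1, a nuclear quality-control ligase, was above 0 in all 6 pairs, at 0.022 to 0.14, with a mean of 0.058 (limma adjusted p = 0.507). It was 1 of 25 genes to be so, against 3.09% of all genes.

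Genes known to act on RPN4 or its product were 8 in number, with medians of 0.030 under H2O2 and 0.017 in untreated cells. Transcription factors of RPN4 are among them, as are the enzymes that mark Rpn4 for degradation. UBR1, a ligase of the N-degron pathway, had the highest mean, 0.060 (limma adjusted p = 0.518), at 0.13, 0.076 and 0.0034 under H2O2 and -0.0060, 0.049 and 0.11 in untreated cells. MUB1, which acts with the ligase Ubr2 on Rpn4, was above 0 in all 6 pairs, at 0.0031 to 0.098. Here 1 of 8 genes was so, against 3.09% of all genes, and MUB1 was picked after its values were seen. RAD6, the ubiquitin-conjugating enzyme of that reaction, had the lowest mean, -0.020.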

How the data were processed

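The values are log2 ratios as deposited, 1 for every probe on every array, made by the authors with limma per the submitters' processing notes, with no version. Background correction and normalisation are not given in the sources used here. The base of the logarithm and the direction, ∆zta1 over wild type in every column, were inferred from limma's convention, the titles and ZTA1. Column medians lay between -0.0172 and 0.0165. Arrays were paired by title, although in both treatments 1 description of a replicate 3 array says replicate 2.

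Of 6256 probes, 5620 had 1 gene and 636 none. Probes of 25 genes were averaged, leaving 5594. The 2 arrays of a pair were averaged. limma 3.58.1 (R 4.3.3; lmFit, eBayes) was fitted to 6 pair means with 1 mean per treatment, 4 residual degrees of freedom and two-sided tests, with Benjamini-Hochberg adjustment across all genes and a threshold of 0.05. The fit was tested on simulated data. The dye part was fitted by limma with 1 mean over the 6 pairs and no treatment term, an alternative chosen after seeing the data.

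Members and lists were chosen with earlier results of these data known. All 34 members may be named, and in other lists SEM1 and the lowest and highest mean; HSM3, SAN1 and MUB1 were named after their values were seen. Replicate numbers were not used to pair samples across treatments in the main fit. The limma p-values rest on the spread between these pairs, moderated by that of all genes (4.6 prior degrees of freedom). Having 3 pairs per treatment limits precision. The element bound by Rpn4 in the promoters was not analysed here.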

Additional observations from a re-analysis of the deposited data

How the results depend on the processing

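With both dyes averaged, no proteasome gene passed under any alternative run (arrays centred or also scaled, all probes as features, robust eBayes, 1 treatment alone, all arrays with a dye term, each pair left out), and the smallest limma adjusted p was 0.426. Each dye orientation alone changed the calls. With ∆zta1 in Cy5, calls were 929 genes and 4 proteasome genes under H2O2, 906 and 4 untreated, and 2063 and 12 in the mean. With ∆zta1 in Cy3, they were 420 and 3, 562 and 3, and 1477 and 8. With both dyes they were 12, 11 and 16 genes, and 30 in the mean with all 12 arrays and a dye term. Some of the proteasome genes called had the opposite sign to the ratio from both dyes, and genes not called are left out here. Under H2O2 the sign was opposite for RPN12 (0.15, Cy3), and untreated for RPN8 (0.17, Cy5) and RPN12 (-0.20, Cy5). In the mean it was opposite for SCL1 (0.11), RPN8 (0.12) and RPN11 (0.12) with ∆zta1 in Cy5, and for PRE10 (0.085), RPT4 (0.13), RPN2 (-0.12) and RPN12 (0.20) in Cy3. By construction these fits keep the dye part. Leaving out each pair gave 6 to 13 genes under H2O2, 9 to 12 untreated, 11 to 22 in the mean and 0 to 3 for the difference, where 3 passed without the second untreated pair. The subunit median ranged from -0.036 to -0.00030 under H2O2 and from -0.014 to 0.012 untreated. The replicate numbers were not used to pair samples in the main fit. Deviations from the treatment means correlated at -0.014, 0.031 and -0.27 between same-numbered pairs, and at -0.14 to 0.26 between the others. With 3 pairs per treatment these values cannot tell whether the numbers link cultures. With a replicate block limma called 10 genes under H2O2, 10 untreated, 0 for the difference and 13 in the mean, and no proteasome gene. The planned search for the promoter element of Rpn4 was not run. Signal over background is unknown.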
